A study of Mus musculus with 15 samples.

Results

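Genes of the chromaffin granule, of regulated exocytosis and of neuroendocrine identity were followed in whole mouse adrenal glands before, at the end of and after a course of dexamethasone. The set was a list of 36 gene symbols. A probe set annotated to that symbol alone was found for 34 of them, among 21439 genes measured in this way. Pcsk2 and Phox2a were not analysed here. The 34 genes held 39 probe sets, and for the 5 genes with more than 1 the brightest was used.

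RNA from adrenal glands of wild type male C57BL/6J mice was hybridised to 15 one-colour Affymetrix arrays, each titled as a biological replicate. Control glands (4 arrays) were taken before any drug. Dexamethasone was then given in the drinking water for 14 days, after which the withdrawal group (3 arrays) was taken at once and the 2 recovery groups (4 arrays each) 3 and 7 days later. Every array carries the age of 6 weeks, which the design text gives as that at the start of dosing, so that in each comparison with control the drug and the days elapsed cannot be told apart.

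The adrenal medulla is made of chromaffin cells, which store catecholamines and peptides in dense granules and release them when acetylcholine from the splanchnic nerve opens nicotinic receptors. Granins such as chromogranins A and B (Chga, Chgb) fill the granule core. Prohormone convertases cut peptide precursors inside it, and a SNARE complex of Snap25, syntaxin and synaptobrevin, triggered by calcium bound to synaptotagmin, fuses the granule with the cell membrane. The cortex surrounds the medulla, and its zona fasciculata depends on pituitary ACTH, which dexamethasone suppresses. In RNA from a whole gland, a change in the share of medulla and a change in RNA per chromaffin cell cannot be told apart. If the share alone had moved, genes made only in the medulla would shift by about the same log2 amount, and the comparisons below measure how even the shift was.

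The bases before the gene start are shown for 4 genes of the granule and its peptides and for Gata3, the gene of the set with the largest difference, because the 4 carry letters of a cyclic AMP response element, whole or in part, and Gata3 does not. The sequences are RefSeq's on GRCm38.p6, 250 bases each, 5′ to 3′ on the gene's strand and ending at the last base before its start. Capitals mark the whole motif TGACGTCA, which reads the same on both strands, and elsewhere its shorter form TGACGT, which was searched on both strands. The locations are chr2:132781392-132781641, plus strand (Chgb), chr1:79440027-79440276, minus strand (Scg2), chr13:75089607-75089856, plus strand (Pcsk1), chr12:102554691-102554940, plus strand (Chga) and chr2:9878601-9878850, minus strand (Gata3).
Chgb: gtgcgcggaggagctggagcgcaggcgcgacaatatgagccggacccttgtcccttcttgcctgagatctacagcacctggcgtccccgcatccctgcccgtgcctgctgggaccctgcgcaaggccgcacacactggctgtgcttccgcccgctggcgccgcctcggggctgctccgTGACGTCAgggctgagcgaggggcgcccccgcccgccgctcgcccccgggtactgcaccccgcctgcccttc
Scg2: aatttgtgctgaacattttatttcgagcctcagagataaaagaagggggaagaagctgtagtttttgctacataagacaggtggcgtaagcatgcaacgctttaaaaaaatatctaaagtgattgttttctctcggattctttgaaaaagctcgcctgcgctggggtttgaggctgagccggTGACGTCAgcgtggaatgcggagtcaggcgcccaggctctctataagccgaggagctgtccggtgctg
Pcsk1: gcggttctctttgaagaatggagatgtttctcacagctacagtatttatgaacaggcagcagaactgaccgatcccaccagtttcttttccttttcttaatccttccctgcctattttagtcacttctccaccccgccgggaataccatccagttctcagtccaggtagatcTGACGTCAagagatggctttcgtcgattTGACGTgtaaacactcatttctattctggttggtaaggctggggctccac
Chga: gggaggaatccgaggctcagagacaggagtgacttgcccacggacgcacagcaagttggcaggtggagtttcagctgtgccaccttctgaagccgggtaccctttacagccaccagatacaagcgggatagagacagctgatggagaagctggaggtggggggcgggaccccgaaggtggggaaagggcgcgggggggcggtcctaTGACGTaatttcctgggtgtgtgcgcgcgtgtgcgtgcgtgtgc
Gata3: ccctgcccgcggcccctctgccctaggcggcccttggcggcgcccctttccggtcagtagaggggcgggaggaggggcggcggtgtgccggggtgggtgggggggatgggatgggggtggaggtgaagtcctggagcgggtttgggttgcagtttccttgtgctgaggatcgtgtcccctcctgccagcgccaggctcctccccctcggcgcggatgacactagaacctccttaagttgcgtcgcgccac

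The longer motif began 72 bases before the start of Chgb, 68 bases before that of Scg2 and 78 bases before that of Pcsk1. It was present in 3 of the 26 genes of the set with an entry in the promoter table, and in 1.55% of all 32851 promoters over the same window. The shorter motif, which lies inside the longer one on either strand, was present in 6 of the 26 genes (Chga, Chgb, Pcsk1, Rab3a, Scg2 and Scg5) and in 6.47% of all promoters. The set is counted by gene, with 30 promoters for its 26 genes, and the background by promoter, so the shares are in unlike units. The Gata3 window held neither. A match of letters is a description and does not show that a factor binds there.

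Values are log2 levels after robust multi-array averaging (RMA), compared by group means ± SD. The 15 array medians lay between 1.55 and 1.64. A level near these values is called near the floor below, since a drop from it could hardly be measured. The median gene had a mean level of 2.44 and the brightest gene 11.95. Of the 34 genes, 30 had a mean over all arrays of at least 4. Stx1a (syntaxin 1A), Sv2c (a synaptic vesicle glycoprotein), Ret (a receptor tyrosine kinase) and Insm1 (a neuroendocrine zinc finger factor) lay below it, with means of 1.99, 2.13, 2.37 and 3.00. Single probes differ in efficiency, so that levels of different genes were not ranked as amounts of RNA.

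Genes that define the medulla were read far above the floor. Npy, Chgb and Chga stood at means of 11.19, 10.84 and 10.64, Resp18 at 9.90 and Scg2 at 9.71. Tyrosine hydroxylase (Th) and dopamine beta-hydroxylase (Dbh), which define catecholamine cells and are not in the set, stood at 9.69 and 9.94.

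Some arrays stood apart across the set. Replicate 2 of day 3 held the highest value of its group for 28 of the 34 genes, and replicate 3 of day 7 for 26. Replicate 2 of the controls held the lowest value of its group for 23. The mean over the 30 brighter genes ran from 6.40 to 6.76 in the controls, from 7.02 to 7.23 at withdrawal, from 6.63 to 7.22 at day 3 and from 6.53 to 7.01 at day 7. The 3 withdrawal arrays thus lay above all 4 controls, while the top arrays of days 3 and 7 reached into the withdrawal range or close to it. The same top arrays had the highest macrophage list means of their groups (6.37 at day 3 and 6.29 at day 7), and their zona fasciculata means were 9.71 and 9.67 in groups that spanned 9.71 to 9.81 and 9.62 to 9.74. The part of these differences in the results was not tested, and results are given below with and without both arrays.

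**Figure D1:**
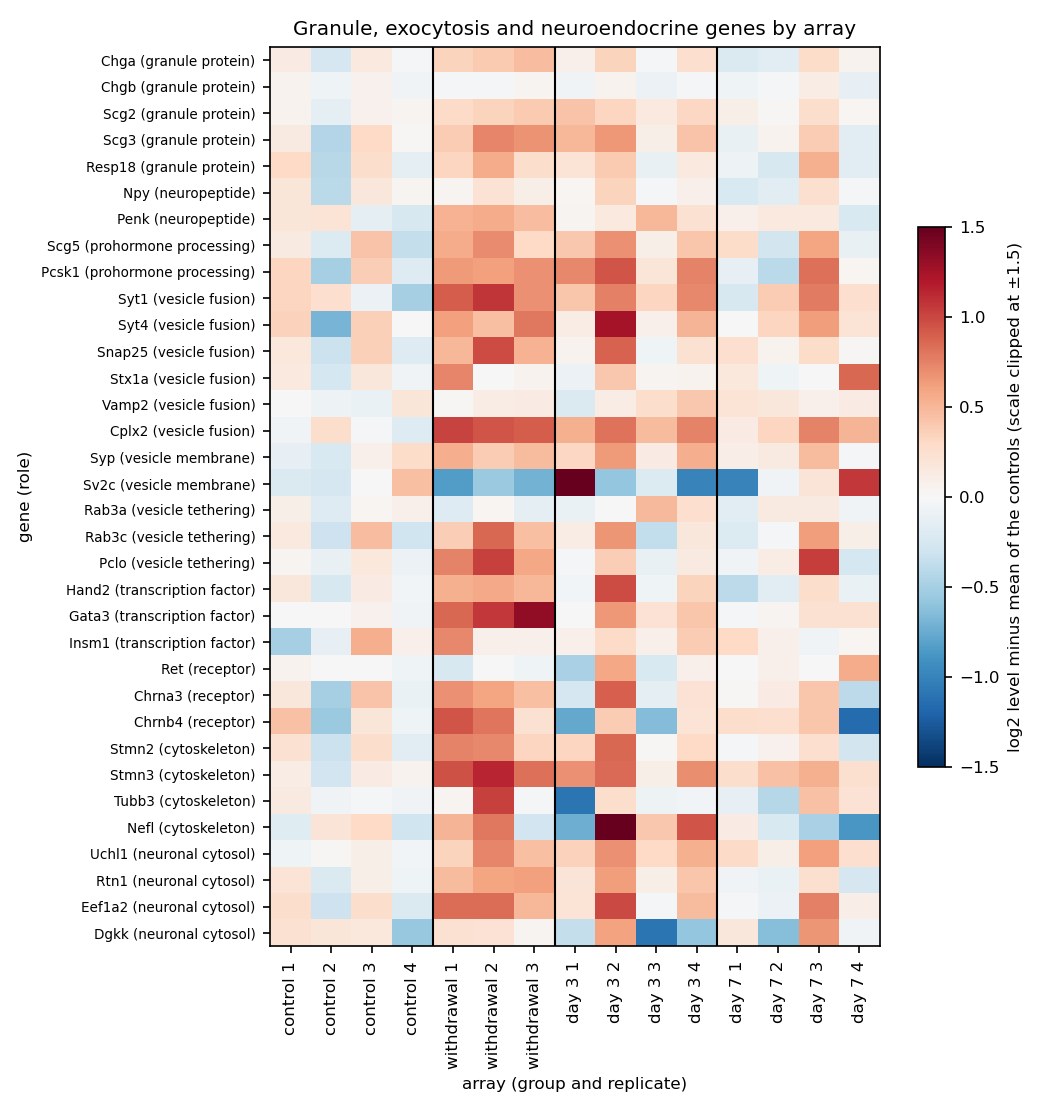
Heat map of the 34 genes (rows, by role) on the 15 arrays (columns, by group), as log2 level minus the mean of the 4 controls, with colours clipped at 1.5 either way. The withdrawal columns are red for most rows and near white for Chgb, Npy, Vamp2 and Rab3a, and replicate 2 of day 3 and replicate 3 of day 7 are the reddest columns of their groups.

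At withdrawal most genes of the set were higher than in control, by a median of 0.52 log2, against -0.01 over all genes. Gata3, Stmn3, Cplx2, Syt1, Rtn1 and Uchl1 rose, by 1.42-fold to 2.12-fold. The group means were higher for 30 of the 34 genes and lower for 4, and 6 passed the test upward and 0 downward (limma, adjusted p under 0.05 over all genes), where 2.49% of all genes were called higher and 1.81% lower. In 19 of the 34 every withdrawal array lay above every control, which held for 8.15% of all genes, and Sv2c alone lay apart in the other direction, as 6.94% of all genes did. These 19 and the 6 called were all among the 30 genes with a mean of at least 4. The shares were larger among brighter genes. Of all 8254 genes with a mean of at least 4, 356 were called higher, 345 lower, and 1077 lay above control without overlap. The 6 calls became 3 (Gata3, Stmn3 and Cplx2) without control replicate 3, without control replicate 4, and without each of the 3 withdrawal arrays. With both top arrays of the recovery groups left out of the shared fit there were 10, adding Eef1a2, Hand2, Pclo and Snap25.

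Gata3, a transcription factor needed for sympathoadrenal cells and also made by T cells, read 4.97, 4.97, 5.05 and 4.93 in the controls and 5.85, 6.05 and 6.32 at withdrawal. The groups did not overlap, with SDs of 0.05 in control and 0.23 at withdrawal. Control replicates 1 and 2 and day 3 replicate 1 carried an identical value. Gata3 rose by 1.09 ± 0.14 (standard error; limma, adjusted p = 0.000502). Its dimmer probe set read 2.36 to 2.60 in the controls and 2.66 to 3.64 at withdrawal. Of 10 lymphocyte genes, looked up after the values of Gata3 were seen, 8 were measured. All 8 had control means under 2. At withdrawal 6 still did, including the T cell receptor component Cd3e at 1.68. Il7r went from 1.40 in control to 4.73, Cd3g from 1.86 to 2.29 and Cd4 from 1.22 to 1.93. Cd28, Il2ra and Klrb1c differed by -0.31, -0.05 and -0.07. The mean over the 8 genes was 1.29 to 1.51 on the control arrays and 1.81 to 2.04 at withdrawal, without overlap. The part of lymphocytes in the rise of Gata3 was not tested.

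Stmn3, a stathmin that binds tubulin in neurons, read 5.79, 5.39, 5.81 and 5.74 in the controls and 6.64, 6.83 and 6.51 at withdrawal, with no overlap. It rose by 0.98 ± 0.16 (limma, adjusted p = 0.00337). Cplx2, a complexin that clamps and primes the SNARE complex, read 4.28, 4.60, 4.32 and 4.14 against 5.35, 5.28 and 5.24, again with no overlap. It rose by 0.95 ± 0.14 (limma, adjusted p = 0.00147). These 2 genes and Gata3 passed in each of the 7 fits that left out 1 array of either group.

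Syt1, a calcium sensor for fast release, read 6.16, 6.10, 5.76 and 5.35 in the controls and 6.75, 6.91 and 6.53 at withdrawal. It rose by 0.89 ± 0.22 (limma, adjusted p = 0.0357), and passed in 2 of the 7 fits, with an adjusted p of 0.144 without withdrawal replicate 2. Rtn1, a reticulon of neuroendocrine endoplasmic reticulum, read 4.63, 4.21, 4.51 and 4.36 against 4.90, 5.02 and 5.04. Its rise of 0.56 ± 0.14 (limma, adjusted p = 0.0401) held in 1 of 7 fits, the highest being 0.128 without withdrawal replicate 2. Uchl1, a ubiquitin hydrolase abundant in neurons, read 7.70, 7.78, 7.85 and 7.72 against 8.10, 8.50 and 8.21. The rise of 0.51 ± 0.13 (limma, adjusted p = 0.0459) held in 0 of 7, with adjusted p from 0.0516 to 0.205. In all 3 genes the groups did not overlap.

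**Figure D2:**
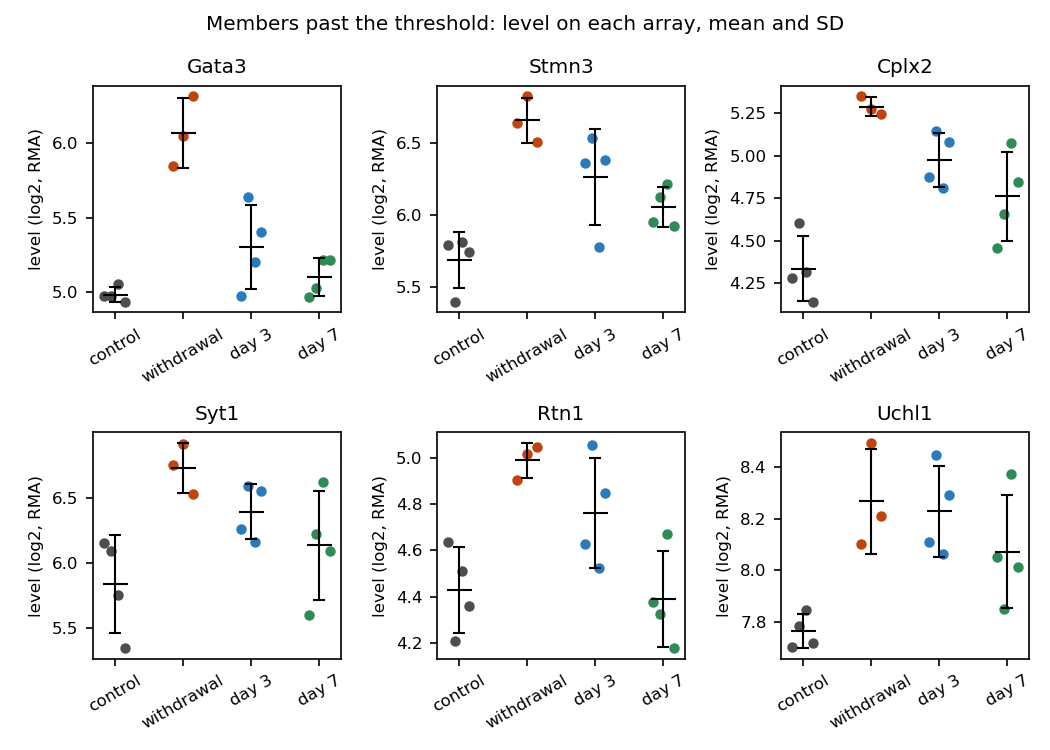
Level (log2, RMA) of the 6 genes past the threshold in any comparison, with a point for each array, and the mean and SD of each group as a bar with caps. The axes do not start at 0. The withdrawal arrays lie above all controls in each panel, and Gata3 at day 7 lies back between 4.96 and 5.21.

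By role, the genes of vesicle fusion had the highest median at withdrawal, 0.64 over 6 genes. Besides Cplx2 and Syt1 these were Snap25, which read 7.64, 7.17, 7.85 and 7.29 in the controls and 7.99, 8.47 and 8.01 at withdrawal, a difference of 0.67 ± 0.21 that did not pass (limma, adjusted p = 0.0975), and Syt4, an unusual synaptotagmin, at 0.62 (limma, adjusted p = 0.276). Stx1a differed by 0.26 near the floor. Vamp2, the synaptobrevin of these vesicles and also made in many other cells, read 6.45, 6.38, 6.35 and 6.64 against 6.48, 6.57 and 6.58, overlapping values with a difference of 0.09 ± 0.13. Among genes that tether vesicles, Pclo, an active zone scaffold, differed by 0.79 ± 0.23 (limma, adjusted p = 0.0749) and Rab3c by 0.56. Rab3a, its close relative, read 5.74, 5.45, 5.68 and 5.73 against 5.45, 5.68 and 5.52, with a difference of -0.10 ± 0.14. Both vesicle membrane genes failed the test, the synaptophysin gene Syp at 0.47 and Sv2c at -0.70, and Sv2c was near the floor, with means of 2.27 before and 1.58 after the drug.

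The 5 granule proteins had a median difference of 0.38, and none passed. Chga read 10.64, 10.26, 10.66 and 10.50 in the controls and 10.85, 10.91 and 10.98 at withdrawal, without overlap, a difference of 0.40 ± 0.13 (limma, adjusted p = 0.127). Chgb read 10.91, 10.79, 10.92 and 10.80 against 10.82, 10.83 and 10.90, with the withdrawal arrays inside the control range and a difference of -0.01 ± 0.08 (limma, adjusted p = 0.976). Scg2, a granin and the source of secretoneurin, read 9.58, 9.39, 9.59 and 9.57 against 9.82, 9.86 and 9.92. These groups were apart by 0.34 ± 0.10, and the adjusted p of 0.0627 became 0.0331 with a further quantile normalization. Scg3, which binds Chga to granule membranes, differed by 0.59 ± 0.18 (limma, adjusted p = 0.0842). Resp18, an endocrine granule protein, read 10.08, 9.36, 10.05 and 9.63 against 10.10, 10.34 and 10.04, differing by 0.38 ± 0.20 (limma, adjusted p = 0.367).

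Neither neuropeptide passed. Npy, neuropeptide Y, read 11.34, 10.75, 11.33 and 11.19 in the controls and 11.19, 11.37 and 11.23 at withdrawal, overlapping, with a difference of 0.12 ± 0.15. Penk, the enkephalin precursor, read 5.71, 5.74, 5.39 and 5.28 against 6.05, 6.08 and 5.99, without overlap. Its difference of 0.51 ± 0.14 missed the threshold (limma, adjusted p = 0.0506). The convertase Pcsk1 differed by 0.65 and Scg5, the chaperone of the convertase PC2, by 0.52, and neither passed.

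The nicotinic receptor subunit Chrna3 read 7.81, 7.14, 8.06 and 7.54 in the controls and 8.32, 8.23 and 8.09 at withdrawal, with no overlap and a difference of 0.58 ± 0.26 (limma, adjusted p = 0.28). Chrnb4, its partner subunit, differed by 0.66 ± 0.38, and Ret, the receptor for glial-derived neurotrophic factors, by -0.10 near the floor. Of the other transcription factors, Hand2 differed by 0.53 (limma, adjusted p = 0.203) and Insm1 by 0.29. In the cytoskeletal group Stmn2, the second stathmin, differed by 0.60, while the neuronal tubulin Tubb3 at 0.35 ± 0.30 and the neurofilament Nefl at 0.34 ± 0.42 had large errors. The neuronal elongation factor Eef1a2 differed by 0.73 ± 0.24 and the diacylglycerol kinase Dgkk by 0.16 ± 0.34. None of the genes in this paragraph passed.

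**Figure D3:**
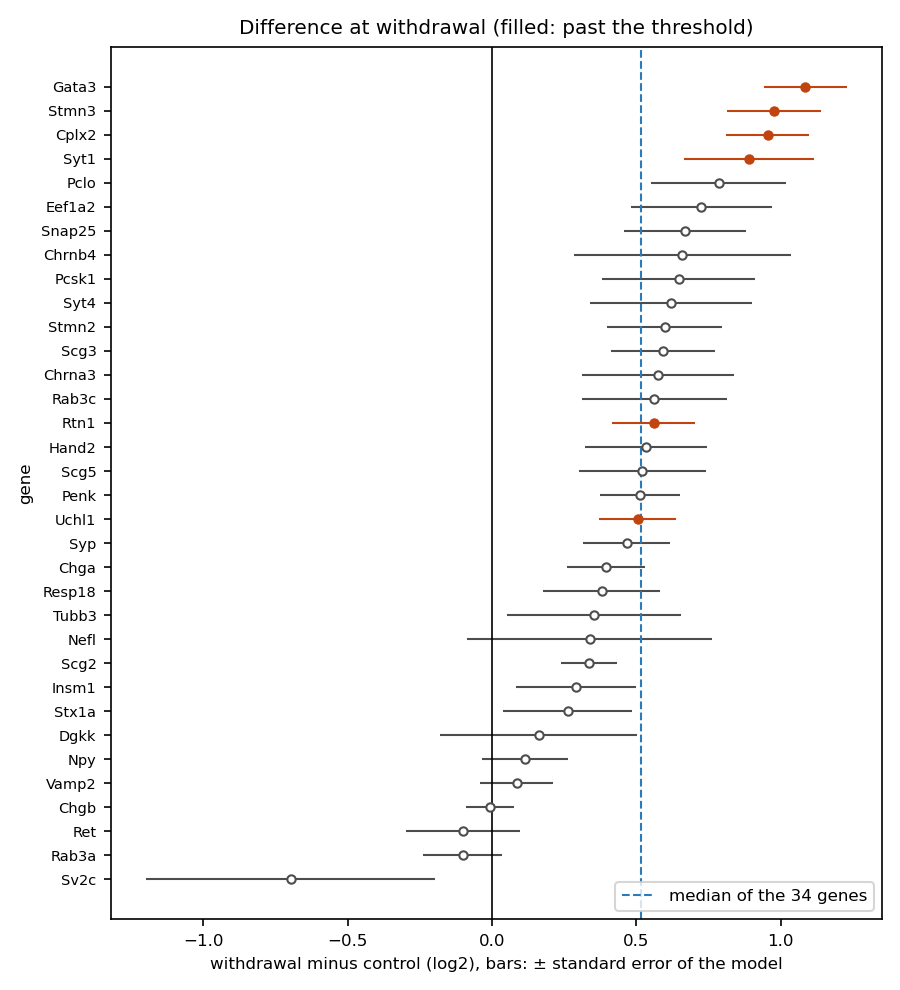
Withdrawal minus control (log2) for the 34 genes, in order of size, with bars for the standard error of the model and filled points for genes past the threshold. The dashed line is the median of 0.52. Npy, Vamp2, Chgb, Rab3a, Ret and Sv2c lie farthest to the left, at 0.12 or lower.

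The size of the shift at withdrawal was then compared between genes. Over the 30 genes with a mean of at least 4 the median difference was 0.55, the quartiles were 0.36 and 0.66, and the SD over genes was 0.28, beside a median standard error of 0.20. That standard error includes variation between arrays that the genes share. It is therefore not the spread over genes that an even shift would give. Each array was then centred on its median over these 30 genes. A gene that moved with that median, called the common shift below, would show no difference. The array medians averaged 6.07 in control and 6.68 at withdrawal, a larger shift than the median difference of 0.55. A gene at the median difference thus comes out slightly below 0, which favours calls below the common shift. The 95% interval of the centred difference left out 0 for 5 of the 30: Chgb, Rab3a, Npy and Vamp2 below the common shift and Gata3 above it. After adjustment over all genes 3 of the 30 were called, all below, Rab3a by -0.70 ± 0.24 (limma, adjusted p = 0.0199), Chgb by -0.61 ± 0.22 (limma, adjusted p = 0.0246) and Npy by -0.49 ± 0.22 (limma, adjusted p = 0.0494). Vamp2 at -0.52 (limma, adjusted p = 0.0592) and Gata3 at 0.48 (limma, adjusted p = 0.0606) did not pass. The centring moves all genes outside the set, so that 61.5% of all genes were called in that fit, and the threshold is lenient there.

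These 3 calls depended on the setting and on single arrays. All were lost under Holm adjustment over all genes, with the common shift taken from members of at least 5 log2, and without control replicate 4, withdrawal replicate 1 or withdrawal replicate 2. Without control replicate 2 Rab3a alone remained called. With both top recovery arrays left out there were 5 (Chgb, Gata3, Npy, Rab3a and Vamp2). With the 8 catecholamine genes as the reference in place of the set, other genes were called, Gata3 and Stmn3. The array medians of that list averaged 7.02 in control and 7.225 at withdrawal, a smaller shift than the list's median difference of 0.43. That reference therefore removes only part of the list's own shift, which favours calls above it. The other 25 intervals held the common shift, and intervals of this width do not show that the shifts were equal.

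The shift was also set against level. The 5 genes above 9 log2 (Npy, Chgb, Chga, Resp18 and Scg2) had a median difference of 0.34, the 4 between 7 and 9 one of 0.58, the 21 between 4 and 7 one of 0.56, and the 4 below 4 one of 0.08. The 5 top genes spanned -0.01 to 0.40, and the 21 genes between 4 and 7 spanned -0.10 to 1.09. Npy and Chgb, both called below the common shift, had means of 11.19 and 10.84, where the brightest gene measured had 11.95. The part of signal level in those calls was not tested.

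The variation inside groups gives a second measure of how a gene followed the rest of the set, free of the differences between group means. For each of the 30 genes, the value on each of the 15 arrays was set against the median of the other 29, both with group means removed. The slope was 0.83 for the median gene and ran from -0.08 to 1.47. It was 0.23 ± 0.05 (standard error) for Chgb, 0.10 ± 0.24 for Rab3a and -0.08 ± 0.19 for Vamp2, so that these 3 genes, with differences of 0.09 or less at withdrawal, also had low slopes inside groups. Npy had a slope of 0.62 ± 0.15 and Penk of -0.01 ± 0.24. Gata3 (0.40 ± 0.22) and Cplx2 (0.36 ± 0.23) had low slopes and differences of 1.09 and 0.95 at withdrawal. Scg2, with a difference of 0.34, had a slope of 0.21 ± 0.11. Single arrays moved several of these slopes. Without replicate 2 of day 3 the slope of Gata3 was 0.21, that of Rab3a 0.29 and that of Penk 0.07. Without replicate 3 of day 7 that of Cplx2 was 0.13, that of Scg2 0.12 and that of Penk -0.16. Without control replicate 2 that of Cplx2 was 0.57 and that of Penk 0.11, and that of Rab3a was 0.00 without either of these last arrays. The points share arrays and the normalization, and the slopes are given as a description. Chgb and Scg2 had mean levels of 10.8 and 9.7, and the part of signal level in the slopes was not tested.

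**Figure D4:**
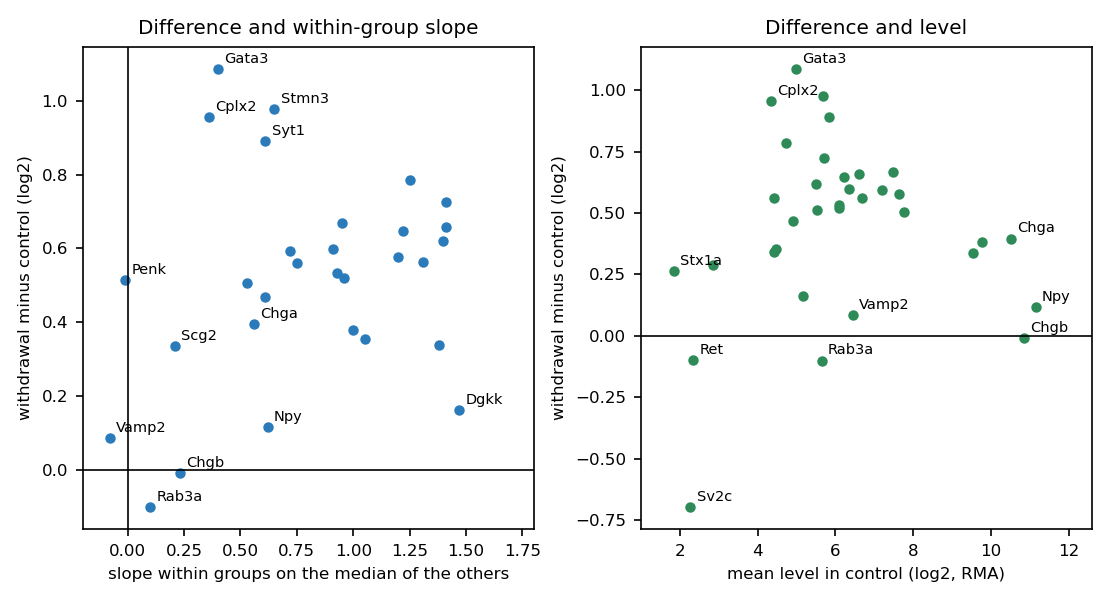
Withdrawal minus control (log2) for each gene against its slope on the median of the others within groups (left, 30 genes) and against its mean level in control (right, 34 genes). Gata3 and Cplx2 stand at the top left of the left panel and Chgb, Rab3a and Vamp2 at its bottom left, and the genes above 9 log2 in the right panel lie at 0.40 or lower.

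By day 3 after withdrawal the set stood between the withdrawal and control levels. The median difference from withdrawal was -0.22, against -0.01 over all genes, and 29 of the 34 group means were lower. The median was -0.12 without day 3 replicate 3 and -0.30 without both top arrays. Gata3 fell, to 4.97, 5.64, 5.20 and 5.40, all under the withdrawal arrays, by 0.77 ± 0.14 (limma, adjusted p = 0.0118). It was the 1 call of 34, where 0.886% of all genes were called lower and 1.37% higher, and it had an adjusted p of 0.0533 without withdrawal replicate 3 and of 0.109 with only the groups compared in the model. The day 3 and withdrawal arrays did not overlap for 4 genes (Gata3, Chga, Cplx2 and Pclo), where 5.73% of all genes were lower without overlap. Of the 8254 genes with a mean of at least 4, 134 were called lower and 730 were lower without overlap. Without both top arrays Pclo was also called. Pcsk1 stood at 6.88 at both times, with a difference of -0.00 ± 0.26. After centring, 0 of the 30 brighter genes were called off the common shift, where 1.27% of all genes were. The intervals are not adjusted, and 3 left out 0 (Rab3a, Gata3 and Chrnb4, limma, adjusted p from 0.372 to 0.415).

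Day 3 was set against control in the same model. The median difference was 0.25, with 28 of 34 means higher. Limma called 0 of the 34, where 0.131% of all genes were called. An unadjusted p under 0.05 was found for 10 of the 34 and for 2153 of all 21439 genes. All 4 day 3 arrays lay above all controls for Cplx2 (0.64 ± 0.13, adjusted p = 0.0666), Syt1, Scg2 and Uchl1, where 2.75% of all genes were higher without overlap. So were 374 of the 8254 genes with a mean of at least 4. Stmn3 was called without day 3 replicate 3. Withdrawal is compared with both control and day 3 here, so these differences share arrays.

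By day 7 the set stood near its control levels. Against withdrawal the median difference was -0.43 and 30 of 34 means were lower. Gata3 fell by 0.97 ± 0.14 (limma, adjusted p = 0.00282), with arrays at 4.96, 5.03, 5.21 and 5.21. Rtn1 fell by 0.60 ± 0.14 (limma, adjusted p = 0.0479), with arrays at 4.38, 4.33, 4.67 and 4.18. These were the 2 calls, where 0.905% of all genes were called lower and 0.98% higher, and the groups did not overlap for 11 of the 34, where 5.89% of all genes were lower without overlap. Of the 8254 genes with a mean of at least 4, 130 were called lower and 754 were lower without overlap. Rtn1 passed in 1 of 7 fits without 1 array, with an adjusted p up to 0.149 without withdrawal replicate 2, and Gata3 in all 7. Without day 7 replicate 3, the top array, 4 genes were called (Cplx2, Gata3, Pclo and Rtn1), and without both top arrays 5, adding Hand2. After centring, Rab3a was the 1 of 30 called off the common shift (0.64 ± 0.24, limma, adjusted p = 0.0479, where 26.4% of all genes were called). It was lost without each of 6 of the 7 arrays, the exception being day 7 replicate 3, without which Chgb and Vamp2 were called too.

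Against control, day 7 had a median difference of 0.08 and an SD over the 30 brighter genes of 0.158, beside a median standard error of 0.185. Here too the standard error includes variation shared by the genes and does not give the spread of an even shift. Limma called 0 of 34 genes, where 0.0187% of all genes were called. An unadjusted p under 0.05 was found for 3 of the 34 and for 1275 of all 21439 genes. Stmn3 (0.37 ± 0.15, adjusted p = 0.791) and Uchl1 (0.31 ± 0.12, adjusted p = 0.787) were the 2 genes with all 4 day 7 arrays above all controls, as 1.75% of all genes had. Of the 8254 genes with a mean of at least 4, 190 had. The median was -0.03 without day 7 replicate 3, and 0.04 without control replicate 2 or 4. It was 0.14 without control replicate 3 or day 7 replicate 2. From day 3 to day 7 the median was -0.16, or -0.09 without day 3 replicate 2 and -0.26 without day 7 replicate 3. Limma called 0 of the 34 there and 0% of all genes. An unadjusted p under 0.05 was found for 5 of the 34 and for 1516 of all 21439 genes.

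Catecholamine genes give a further reading of the medulla. In a list of 8 catecholamine genes, the dopa decarboxylase Ddc rose by 0.64 ± 0.13 (limma, adjusted p = 0.00932) and the granule electron carrier Cyb561 by 0.67 ± 0.15 (limma, adjusted p = 0.0194), and the median was 0.43. The other 6 did not pass: the vesicle transporters Slc18a1 at 0.54 and Slc18a2 at 0.49, the adrenaline-forming Pnmt at 0.36, Th at 0.26, Dbh at 0.22 and the cofactor enzyme Gch1 at -0.24. Among all genes 2.49% were called higher at withdrawal. By day 7 Ddc fell from withdrawal by 0.67 ± 0.13 (limma, adjusted p = 0.0122), where 0.905% of all genes were called lower.

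A wider list of 72 exocytosis and neuroendocrine genes, of which 66 were measured, had a median of 0.25 at withdrawal, with 6 called higher and 1 lower, where 2.49% of all genes were called higher and 1.81% lower. Many of these genes were dim, such as Tac1 and Sox11 with means of 0.85 and 1.33. The list's array medians averaged 3.84 in control, and those of the set 5.87, so the median shifts of the 2 lists are not at like levels. Sv2a, the ubiquitous relative of Sv2c in vesicle membranes, rose by 1.25 ± 0.26, from 3.90 to 5.15, and the homeobox factor Isl1 by 1.20 ± 0.29, from 4.69 to 5.89. Rph3a, an effector of Rab3, rose by 0.93, Rab27a by 0.83, the pituitary adenylate cyclase-activating peptide receptor Adcyap1r1 by 0.69 and the scaffold Rims2 by 0.52. The tau gene Mapt fell by 1.27 ± 0.25 (limma, adjusted p = 0.00867). At day 3 against withdrawal 1 of the 66 was called, the SNARE recycling ATPase Nsf at -0.57 ± 0.14, where 0.886% of all genes were called lower. At day 7 against withdrawal limma called 0 of the 66. An unadjusted p under 0.05 was found there for 19 of the 66 and for 2902 of all 21439 genes.

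Markers of other cells moved at the same time. Zona fasciculata genes (9 of 9 measured) were lower at withdrawal by a median of -0.71 with 7 called, and the list mean ran from 8.91 to 9.08 on those arrays and from 9.80 to 9.85 in control. Macrophage genes (10 of 10) were higher by 0.86 with 8 called, from a list mean of 5.64 to 5.75 in control to 6.48 to 6.79. Schwann and glial genes (8 of 10) had a median of 0.52 with 0 called by limma. Their list means were 2.76 to 3.10 in control and 3.38 to 3.80 at withdrawal. An unadjusted p under 0.05 was found for 4 of the 8 and for 3647 of all 21439 genes. Endothelial genes (8 of 8) had a median of -0.36 with 1 called lower. Over all genes 2.49% were called higher at withdrawal and 1.81% lower. All 9 zona fasciculata genes had means of 8.44 or more over all arrays. Of the 10 macrophage genes 9 had means from 4.82 to 9.12, and Cd163 was near the floor at 2.36. Most Schwann and glial genes were dim. Sox10, Ngfr, Foxd3, Erbb3, Gfra3 and Cdh19 had means of 1.34, 1.58, 1.97, 2.95, 3.15 and 3.60. S100b and Fabp7 stood at 4.84 and 6.21. The part of these other cells in the shift of the medulla genes was not tested.

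**Figure D5:**
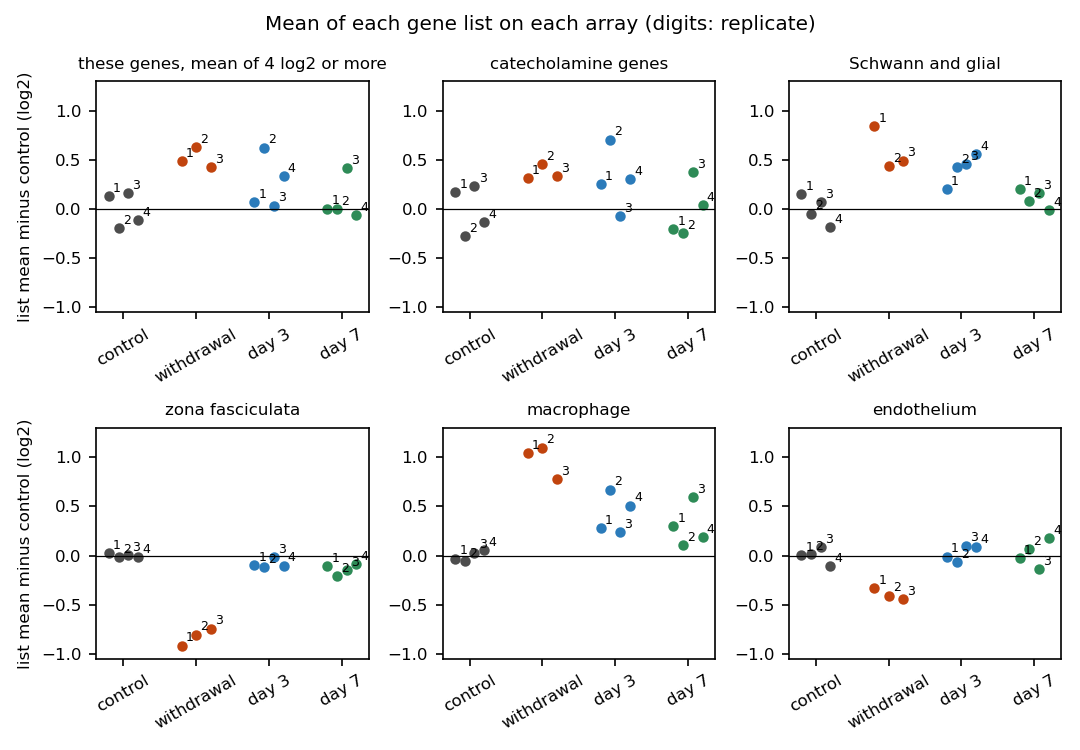
Mean of each gene list on each array minus the average of the 4 controls (log2), with digits for the replicate. The granule and exocytosis genes and the catecholamine genes are up at withdrawal, and in the recovery groups are highest on replicate 2 of day 3 and replicate 3 of day 7. Replicates 1 and 4 of day 3 also lie above all controls for the catecholamine genes, and replicate 4 also for the granule and exocytosis genes. The zona fasciculata list is lowest at withdrawal, where its mean before subtraction is 8.91 to 9.08.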

How the data were processed

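Per the submitters' processing notes, which name RMA and oligo, the deposited values are log2 levels summarised per probe set. The sources used here do not state versions, annotation or filters. Depth does not apply to arrays, and the number of arrays limits the precision. No scan or slide information was used here.

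Probe sets with 1 gene symbol in the platform annotation (22399 of 32736) were kept, and the brightest of each gene was used. The test was limma (lmFit and eBayes, version 3.58.1, R 4.3.3), with 1 model of 15 arrays and 4 groups, with Benjamini-Hochberg adjustment over 21439 genes in each of 6 comparisons and a threshold of 0.05. The scripts were tested on simulated data in which few genes changed. A simulated difference of 0.5 log2 was called in 28.4% of cases for withdrawal against control. It was called in 26.9% for day 7 against withdrawal and 19.4% for day 7 against control. A difference of 1 log2 was called in 94.0%, 71.6% and 80.6%. Failing the test therefore does not show that a gene was unchanged. Centred fits subtracted each array's median over the members with a mean of at least 4 log2. Promoters came from RefSeq tables (GRCm38.p6).

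The members and gene lists were chosen with earlier results of these data known. By rule, values on each array are given for members that passed in any comparison and for the 8 brightest. Rab3a, Vamp2 and Penk were added after their values were seen. Labels do not say that replicate numbers mark pairs. Deviations of same-numbered arrays correlated between -0.27 and 0.11 over 21 pairs, and no block was used. The alternatives covered normalization, dim genes, probe set choice, the variance model, the samples fitted, a replicate block and leaving out arrays.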

Additional observations from a re-analysis of the deposited data

Results flagged for a closer look

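Among 105 groups of 4 arrays (34 genes and the median of the brighter genes, in control, day 3 and day 7), 6 held an array far from the other 3 by Dixon's criterion. Chance gives about 1 in 20, or 5.2. The median of the 30 brighter genes was 6.57 on day 7 replicate 3 and 5.99 to 6.03 on the others. Day 7 replicate 4 read 5.46 for the nicotinic subunit Chrnb4, against 6.87 to 7.02, and 2.90 for Ret, against 2.36 to 2.42. Control replicate 2 read 9.39 for Scg2 (9.57 to 9.59 on the others) and 5.39 for Stmn3 (5.74 to 5.81). Control replicate 4 read 4.61 for Dgkk, against 5.33 to 5.40.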

How the results depend on the processing

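The medians of the set kept their direction under every normalization run, at 0.41 to 0.52 for withdrawal against control. Centring each array on its median put the median of all genes there at -0.12 in place of -0.01, and changed the split of all calls from 534 higher and 387 lower to 341 and 853, while a further quantile normalization gave 421 and 462. Gata3, Stmn3 and Cplx2 passed at withdrawal in all settings run. The number of genes called at withdrawal (6) was 3 with median centring, 3 with the replicate block, 10 with a filter on dim genes and 10 without both top arrays of days 3 and 7, a choice made after seeing the data. It was 3 to 5 without 1 array. At day 3 against withdrawal the 1 call was 0 with only the groups compared, 2 without both top arrays and 0 to 1 without 1 array. At day 7 against withdrawal the 2 calls were 1 with median centring, quantile normalization, trend and robust eBayes, only the groups compared or the replicate block, 4 with the dim filter, 5 without both top arrays and 1 to 4 without 1 array. Day 3 against control (0) had 1 with the dim filter and 0 to 1 without 1 array. Day 7 against control and against day 3 stayed at 0 in all settings run, including 0 to 0 without 1 array. Genes off the common shift at withdrawal (3) were 5 with only the groups compared, 5 without both top arrays, 0 with the replicate block, with members of at least 5 log2 and with Holm, and 0 to 3 without 1 array. The catecholamine reference, whose array medians moved less than that list's median difference, gave 2 others, Gata3 and Stmn3. At day 7 (1) they were 2 with the probe set of largest variance, 4 with the mean of probe sets, 3 with trend and robust eBayes, 4 without both top arrays, 0 with the replicate block, at least 5 log2, catecholamine genes as reference and Holm, and 0 to 3 without 1 array. At day 3 they were 0 throughout, 0 to 0 without 1 array. The causes were not tested. The replicate numbers are not known to pair arrays.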

Other observations

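Insm1 carried the same level of 2.94 on 6 of the 15 arrays. The second probe set of Syt4 read 4.66 to 4.88 in the controls and 4.96 to 5.40 at withdrawal, without overlap, as the main one did. The second probe sets of Syp and Uchl1 had means of 1.05 and 1.02, at the floor.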
